A study of Mus musculus with 4 samples.

Results

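The genes described are 7 that macrophages switch on when they are alternatively activated by the type 2 cytokines IL-4 and IL-13: Retnla, Alox15, Mgl2, Clec10a, Mrc1, Cd163 and Trem2. They were taken by symbol from a table of 41079 genes counted in mouse lung, and all 7 reached 10 counts in 1 or both libraries of every comparison. Each of the 4 groups was 1 RNA-seq library: WT and Rab44-KO lungs, each normal and OVA-induced. The Rab44-KO mice carry a Rab44 gene disrupted with CRISPR/Cas9 on a C57BL/6 background, and Rab44 encodes a large Rab-family GTPase of hematopoietic cells. Per the methods the animals were female littermates aged 8 to 14 weeks. OVA induction, the same in both genotypes, combined priming and airway exposure to the egg protein ovalbumin (OVA). Priming took 3 injections into the abdomen, a week apart from day 0 to day 14, each of 100 μg with alum as adjuvant. The airways then received 100 μg in a 50 μL volume by the nose on days 17 to 20, and day 21 was the day of lung collection. The labels give normal mice as untreated. How many mice stand behind a library is not given in the sources used here, so there is no spread between replicates and no p-value below. Every interval is a 95% interval of counting error only.

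Alternative activation is the macrophage program of allergy, parasite infection and wound repair. IL-4 and IL-13 signal through receptors that share the IL-4Rα chain to the transcription factor STAT6, which binds near genes such as Retnla and Chil3. The products are an enzyme (Alox15, which oxygenates arachidonic and linoleic acid), a secreted resistin-like protein (Retnla, also called FIZZ1 or RELMα) and surface receptors. The receptors comprise the galactose-type lectins Mgl2 and Clec10a, the mannose receptor Mrc1, the hemoglobin-haptoglobin scavenger receptor Cd163 and the lipid-sensing receptor Trem2. Several of these genes are not made by macrophages alone: airway epithelium can make Retnla, eosinophils and epithelium Alox15, and dendritic cells the galactose lectins. In whole lung, fewer cells of a type and less RNA per cell cannot be told apart.

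The targeted gene followed the labels. Rab44 had 251 counts in normal WT and 810 in OVA-induced WT, against 1 in normal and 0 in OVA-induced Rab44-KO lungs. With that 0 set to 3 counts, its level was 272-fold lower than in OVA-induced WT, and the counting interval begins at 220.5-fold. Library totals were 18112901 to 19910236 counts, and 3 counts, the value put in place of 0 in such a fold, corresponded to 0.154 to 0.164 counts per 1000000 counts (CPM). The sex-linked genes did not follow the stated sex. The Y-linked Ddx3y had 1536 to 2216 counts, and Kdm5d and Uty at least 363, in all 4 libraries. Eif2s3y, also Y-linked, had 397 counts in WT and 1259 in Rab44-KO mice under normal conditions, and 1730 in WT and 1541 in Rab44-KO mice after OVA induction. Xist, the RNA of the inactive X chromosome of female cells, had 41 counts in WT and 40 in Rab44-KO mice under normal conditions, and 538 in WT and 72 in Rab44-KO mice after OVA induction. Xist was thus highest in the library in which most of the genes below were highest, and its part in the results was not tested.

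The promoters of 4 of the genes are shown because 3 of these genes were far higher in OVA-induced WT than in any other library and the fourth, Cd163, was not. Each run is the 250 bases before the RefSeq transcription start on GRCm38.p6, 5′ to 3′ on the plus strand: Retnla at chr16:48842359-48842608, Mgl2 at chr11:70130107-70130356, Trem2 at chr17:48346151-48346400 and Cd163 at chr6:124304401-124304650. Capitals mark TTCNNNNGAA, the form in which STAT6 sites are usually written, which reads the same on both strands.
Retnla: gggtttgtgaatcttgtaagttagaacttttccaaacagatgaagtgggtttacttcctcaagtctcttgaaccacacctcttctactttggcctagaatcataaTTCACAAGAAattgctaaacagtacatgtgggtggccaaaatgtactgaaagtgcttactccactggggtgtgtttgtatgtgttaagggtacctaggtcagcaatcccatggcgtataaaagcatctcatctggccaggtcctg
Mgl2: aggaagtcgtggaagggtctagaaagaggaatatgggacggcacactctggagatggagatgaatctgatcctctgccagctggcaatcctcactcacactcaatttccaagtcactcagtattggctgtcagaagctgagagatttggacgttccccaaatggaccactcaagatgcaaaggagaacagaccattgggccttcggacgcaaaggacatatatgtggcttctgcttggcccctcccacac
Trem2: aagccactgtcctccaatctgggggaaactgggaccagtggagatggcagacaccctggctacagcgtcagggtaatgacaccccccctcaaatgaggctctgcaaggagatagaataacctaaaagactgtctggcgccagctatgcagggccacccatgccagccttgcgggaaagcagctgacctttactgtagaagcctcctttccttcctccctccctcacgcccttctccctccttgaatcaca
Cd163: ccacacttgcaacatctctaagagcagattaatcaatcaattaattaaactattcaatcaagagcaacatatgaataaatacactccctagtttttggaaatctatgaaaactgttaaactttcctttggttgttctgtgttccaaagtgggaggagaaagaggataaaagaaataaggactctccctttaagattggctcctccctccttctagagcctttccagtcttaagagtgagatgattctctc
Retnla held 1 such match, from 145 to 136 bases before its start, and also the letters TATAAA once. Mgl2, Mrc1, Trem2 and Cd163 held neither. Of 32851 promoter windows of this length, 5.85% held TTCNNNNGAA and 7.59% held TATAAA (searched in the written direction only). Promoters of Alox15 and Clec10a were not analysed here. Among the other genes of alternative activation described further on, 3 of 11 with a promoter in the table held TTCNNNNGAA, namely Ccl17, Cd209e and Pdcd1lg2. A match is only a description of these letters.

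OVA induction of WT mice went with higher levels of nearly the whole group. Between normal WT and OVA-induced WT lungs, 6 of the 7 genes were over 2-fold higher and none was over 2-fold lower, where 8.99% of all genes with at least 10 counts were over 2-fold higher and 5.20% lower. The median log2 fold change of the 7 was 2.12 (all genes, 0.00), and it ran from 0.32 for Cd163 to 6.26 for Retnla. In Rab44-KO lungs the same comparison found 0 of 7 over 2-fold in either direction (all genes, 6.44% higher and 3.85% lower), with a median log2 fold change of 0.20. Summed over the 7 genes, the level was 163 CPM in WT and 170 in Rab44-KO mice under normal conditions, and 2662 in WT and 203 in Rab44-KO mice after OVA induction.

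**Figure D1:**
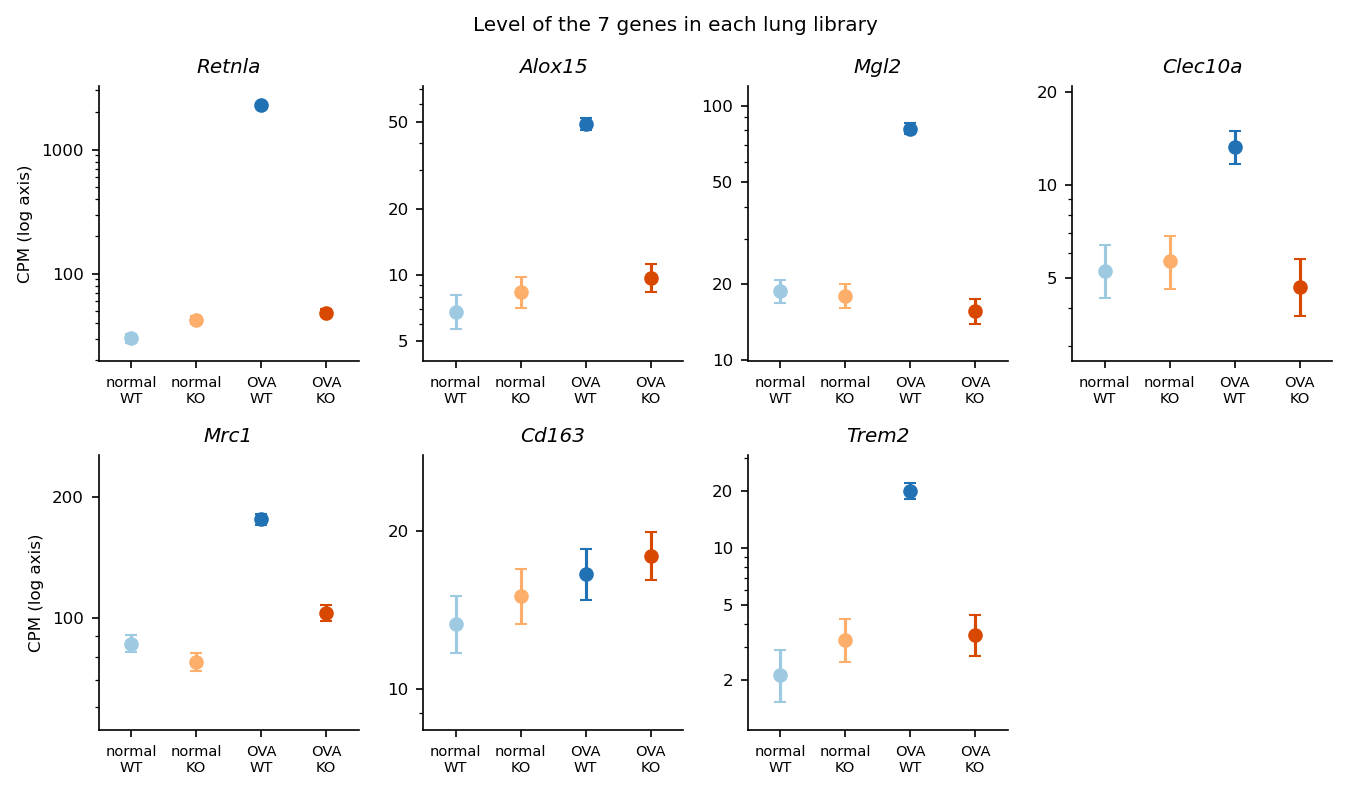
Level of each of the 7 genes in each library, as CPM on a log axis scaled separately per gene, with bars for the 95% Poisson counting interval; 1 library per group. OVA-induced WT stands above the other 3 libraries for 6 genes, all except Cd163, for which the intervals of neighboring libraries overlap.

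Among the effectors, Retnla (chr16:48842551-48844461, plus strand, GRCm38) had the largest response. Its level was 30.1 CPM in WT and 42.2 in Rab44-KO mice under normal conditions, and 2306 in WT and 48.4 in Rab44-KO mice after OVA induction. The OVA-induced WT value was 76.6-fold that of normal WT (70.6 to 83.3), while the OVA-induced Rab44-KO value was 1.15-fold that of normal Rab44-KO (1.04 to 1.26). No pair of the 4 counting intervals overlapped, so even the small step between the normal libraries, 1.4-fold higher in Rab44-KO (1.26 to 1.57), was beyond counting error. On the deposited length-scaled abundance (TPM), Retnla was the fifth most abundant gene of the whole table in OVA-induced WT lungs, at rank 5 of 41079, and at ranks 1071 and 685 in the normal WT and Rab44-KO libraries and 512 in OVA-induced Rab44-KO. It made up 86.6% of the counts of the 7 genes in OVA-induced WT against 18.5% to 24.9% elsewhere. Without Retnla the other 6 genes still summed to 356 CPM in OVA-induced WT, against 132 in WT and 128 in Rab44-KO under normal conditions and 154 in OVA-induced Rab44-KO.

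Alox15 (chr11:70344152-70352031, minus strand), the 12/15-lipoxygenase, was rarer and was again highest in OVA-induced WT. Its level was 6.82 CPM in WT and 8.38 in Rab44-KO mice under normal conditions, and 48.6 in WT and 9.75 in Rab44-KO mice after OVA induction. This was 7.13-fold higher with OVA induction in WT (5.93 to 8.63) and 1.16-fold in Rab44-KO (0.935 to 1.45). The gene length implied by its deposited TPM was 5.99 times its longest GENCODE transcript, so its TPM is low for its counts. Its level is therefore not ranked against the other genes here. The deposited span of Alox15, 70234973 to 70279465, is also longer than the GENCODE position printed above. Its counts may thus include reads from outside that position, which was not tested.

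The lectins responded less. Mgl2 (chr11:70130329-70137550, plus strand), which binds galactose-type sugars, was at 18.6 CPM in WT and 17.9 in Rab44-KO mice under normal conditions, and 81.2 in WT and 15.6 in Rab44-KO mice after OVA induction. With OVA induction it was 4.35-fold higher in WT (3.88 to 4.90) and 0.870-fold in Rab44-KO (0.742 to 1.02). Its neighbor Clec10a (chr11:70156197-70170834, plus strand), the related lectin MGL1, was at 5.26 CPM in WT and 5.64 in Rab44-KO mice under normal conditions, and 13.2 in WT and 4.67 in Rab44-KO mice after OVA induction. For both genes OVA-induced WT stood alone and the other 3 libraries had overlapping intervals. Clec10a was 2.51-fold higher with OVA induction in WT (1.99 to 3.20), and its interval reaches just under 2-fold.

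The pair of galactose lectins did not keep its proportion. Mgl2 had 3.54 counts per Clec10a count in WT (2.83 to 4.47) and 3.17 in Rab44-KO (2.54 to 4.00) under normal conditions, and 6.14 in WT (5.38 to 7.04) and 3.34 in Rab44-KO (2.63 to 4.27) after OVA induction. This ratio does not depend on library scaling, and OVA-induced WT was the only library whose interval did not overlap the others. The coding sequences are 87.7% identical over 927 aligned bases, but just 34 of the 150-base windows of their transcripts are shared, which is 1.44% of the windows of Mgl2 and 0.931% of those of Clec10a.

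Mrc1 (chr2:14229392-14332057, plus strand), the mannose receptor CD206, had the most counts of the group outside OVA-induced WT lungs. Its level was 86.3 CPM in WT and 77.5 in Rab44-KO mice under normal conditions, and 176 in WT and 103 in Rab44-KO mice after OVA induction, with no overlap between neighboring intervals. It was 2.04-fold higher with OVA induction in WT (1.93 to 2.17) and 1.33-fold in Rab44-KO (1.24 to 1.42). The WT value sits at the 2-fold line: scaled by total counts or taken from TPM it was under it, with a lowest log2 fold change of 0.85, which leaves 5 genes over 2-fold.

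The last 2 receptors went apart. Trem2 (chr17:48346401-48354147, plus strand), which signals through the adaptor Tyrobp, was at 2.14 CPM in WT and 3.29 in Rab44-KO mice under normal conditions, and 20.1 in WT and 3.49 in Rab44-KO mice after OVA induction. It was 9.43-fold higher with OVA induction in WT (6.82 to 13.3) and 1.06-fold in Rab44-KO (0.739 to 1.53), and the neighbors among the 3 lower libraries overlapped. Cd163 (chr6:124304656-124330527, plus strand) was at 13.3 CPM in WT and 15.0 in Rab44-KO mice under normal conditions, and 16.6 in WT and 18 in Rab44-KO mice after OVA induction. It was the only member with its highest level in Rab44-KO lungs, 1.25-fold higher with OVA induction in WT (1.06 to 1.48) and 1.20-fold in Rab44-KO (1.02 to 1.41). The antisense transcript Gm52877 overlaps Cd163 and had 78 to 142 counts. The strand setting of the counting is not given in the sources used here, so reads of the pair may not be fully separated.

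Per length, and leaving out Alox15, Retnla was the most abundant of the other 6 genes in every library, from 132 TPM under normal conditions in WT to 8976 TPM in OVA-induced WT. Mrc1 came next in 3 of the libraries, at 38.6 TPM in WT and 35.3 in Rab44-KO under normal conditions and 51.1 in OVA-induced Rab44-KO. In OVA-induced WT it was passed by Mgl2, at 86.2 TPM against 69.8 for Mrc1. Trem2 was at 4.43 TPM in normal WT, under Clec10a (8.33 TPM) and Cd163 (7.00 TPM), and at 37.0 TPM in OVA-induced WT, above Clec10a (18.5 TPM) and Cd163 (7.74 TPM). The length implied by the TPM of Trem2 was 0.226 times its longest GENCODE transcript, so its place among the others depends on the gene length used.

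Under normal conditions the genotypes differed little. None of the 7 genes was over 2-fold apart between the normal libraries, where 2.77% of all genes were higher and 2.0% lower in Rab44-KO. The median log2 fold change was 0.18 (all genes, 0.00), from -0.16 for Mrc1 to 0.62 for Trem2. Besides the step of Retnla, Trem2 had an interval above no change, at 1.54-fold higher in Rab44-KO (1.02 to 2.35) on 60 against 41 counts. Mrc1 was 1.11-fold lower (1.04 to 1.20).

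Under OVA-induced conditions 5 of the 7 genes were over 2-fold below their WT level in Rab44-KO lungs and none was over 2-fold higher, where 7.34% of all genes were lower and 8.40% higher. The median log2 fold change was -2.32 (all genes, -0.02). Retnla was 47.6-fold lower (44.6 to 50.8). Trem2 was 5.77-fold lower (4.45 to 7.58), Mgl2 5.21-fold (4.60 to 5.91), Alox15 4.99-fold (4.27 to 5.86) and Clec10a 2.83-fold (2.22 to 3.64). The intervals of Trem2, Mgl2 and Alox15 overlapped. With the trend of fold change with gene length removed, the log2 fold changes were -2.08 for Trem2, -2.09 for Mgl2 and -2.77 for Alox15, so their closeness depends on this choice. The length used there is the one implied by TPM, which for Alox15 was 5.99 times its longest GENCODE transcript. Mrc1 was 1.71-fold lower (1.62 to 1.81), and Cd163 was 1.08-fold higher in Rab44-KO (0.928 to 1.26). This comparison and the OVA response of WT share the OVA-induced WT library, so they are not independent of each other.

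**Figure D2:**
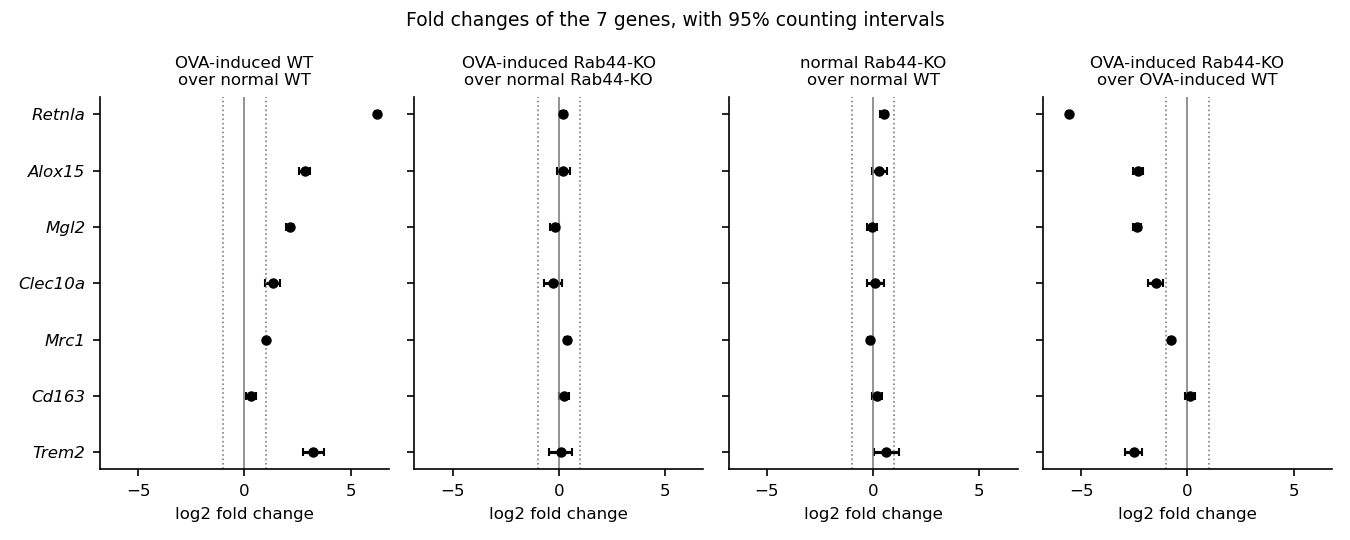
log2 fold change of the 7 genes in each of the 4 comparisons between libraries, named above each panel, with bars for the 95% counting interval, a solid line at no change and dotted lines at 2-fold. In OVA-induced over normal WT 6 of the 7 genes lie right of the 2-fold line (up to 6.26) and Cd163 is at 0.32; in OVA-induced Rab44-KO over WT 5 lie left of it (down to -5.57), Mrc1 is at -0.78 and Cd163 at 0.12. All 7 are within 2-fold in the other panels.

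The OVA response of Rab44-KO minus that of WT, on the log2 scale, gave a median of -2.32 over the 7 genes, against -0.03 over 19744 genes. By gene it was -6.06 for Retnla (-6.24 to -5.88), -3.15 for Trem2 (-3.83 to -2.47) and -2.62 for Alox15 (-3.02 to -2.21). It was smaller for the lectins, at -2.32 for Mgl2 (-2.60 to -2.04), -1.60 for Clec10a (-2.13 to -1.08) and -0.62 for Mrc1 (-0.75 to -0.49). Only Cd163, at -0.06 (-0.39 to 0.27), had an interval that includes 0.

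The macrophage markers of the lung also differed between the libraries. For the lists and stretches below, the shares of all genes over 2-fold by CPM are those given above. They were 8.99% higher and 5.20% lower with OVA induction in WT, and 6.44% and 3.85% in Rab44-KO. Between the OVA-induced genotypes 8.40% were higher and 7.34% lower in Rab44-KO. The 6 genes of a pan-macrophage list (Adgre1, Csf1r, Cd68, Mertk, Fcgr1 and Lyz2) summed to 5190 CPM in WT and 5768 in Rab44-KO mice under normal conditions, and 10305 in WT and 5062 in Rab44-KO mice after OVA induction. With OVA induction 2 of the 6 were over 2-fold higher in WT and 1 in Rab44-KO, and 3 were over 2-fold lower in OVA-induced Rab44-KO than WT. None was at 0 in any library. Most of that sum is Lyz2, a lysozyme that alveolar type 2 cells make too. Cd68, a lysosomal protein of macrophages, had 591 counts in WT and 583 in Rab44-KO mice under normal conditions, and 2352 in WT and 651 in Rab44-KO mice after OVA induction. The receptor kinase Mertk, in contrast, had 1336 to 1509 counts throughout.

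Counted against these 6 genes in the same library, the medians of the OVA response of WT and of the OVA-induced genotype difference were closer to 0, while Cd163 turned lower in the first and was farther from 0 in the second. In OVA-induced WT over normal WT the median log2 change of the 7 genes was 1.13 (2.12 by CPM). On this scale 3.41% of all genes were over 2-fold higher and 49.0% lower, and 4 of the 7 were over 2-fold higher: Retnla 38.6-fold, Trem2 4.75-fold, Alox15 3.59-fold and Mgl2 2.19-fold. Clec10a, Mrc1 and Cd163 were at 1.27-fold, 1.03-fold and 0.629-fold. In OVA-induced Rab44-KO over WT the median was -1.29 (-2.32 by CPM), and 4 of the 7 were over 2-fold lower and 1 higher, where 2.13% of all genes were lower and 50.1% higher. There Retnla was 23.4-fold lower, Trem2 2.84-fold, Mgl2 2.56-fold and Alox15 2.45-fold, whereas Cd163 was 2.20-fold higher (1.71-fold without Lyz2) and Mrc1 1.19-fold higher (1.09-fold lower without Lyz2). Leaving out Lyz2, a choice made after the data were seen, gave medians of 1.31 and -1.66.

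**Figure D3:**
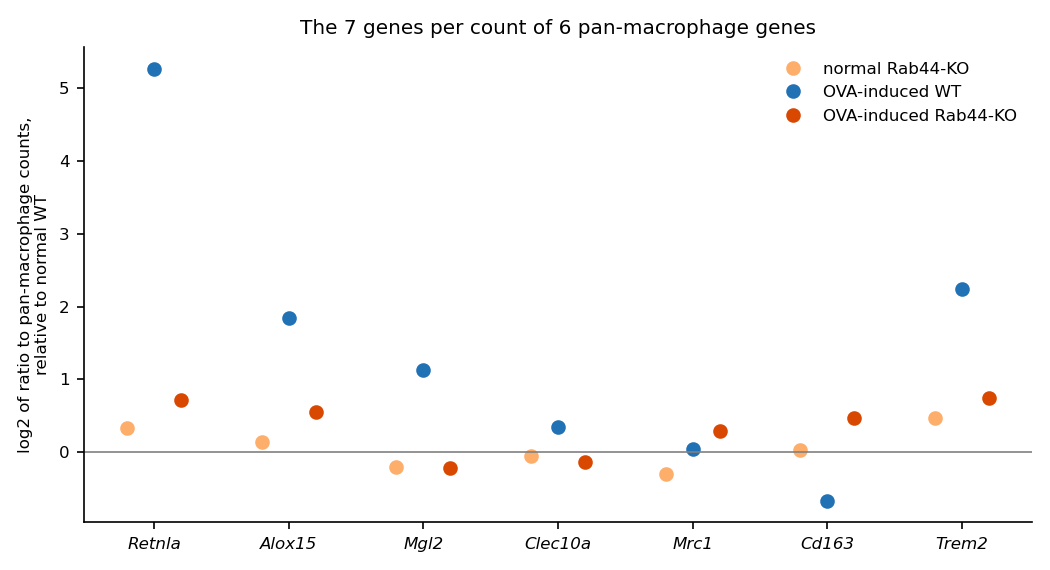
Counts of each of the 7 genes per count of the 6 pan-macrophage genes in the same library, as the log2 of the ratio to normal WT; the line at 0 is normal WT and each point is 1 library. OVA-induced WT reaches 5.27 for Retnla and is near 0 for Mrc1 (0.04) and below it for Cd163 (-0.67).

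Macrophage subsets were mixed. The complement genes C1qa, C1qb and C1qc, of interstitial macrophages, were higher in OVA-induced WT, with C1qa at 553 counts in WT and 530 in Rab44-KO mice under normal conditions, and 2152 in WT and 658 in Rab44-KO mice after OVA induction. Lyve1, which lymphatic endothelium also makes, went the other way, with 6410, 6956, 3122 and 7637 counts in the same order. Of the 8 interstitial macrophage genes, 4 were lower and 1 was higher by over 2-fold in OVA-induced Rab44-KO than WT. Of the 8 alveolar macrophage genes 3 were over 2-fold lower and 0 higher. The scavenger receptor Marco, the farthest apart, had 145 counts in WT and 379 in Rab44-KO mice under normal conditions, and 912 in WT and 76 in Rab44-KO mice after OVA induction. Ear1 and Cidec went the other way by less than 2-fold, with 258 and 198 counts in OVA-induced WT and 436 and 252 in OVA-induced Rab44-KO.

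Markers of other cells of the lung differed between the libraries as well. Of 7 eosinophil genes 5 had enough counts under OVA-induced conditions and all 5 were over 2-fold lower in Rab44-KO than WT. Among them was the eotaxin receptor Ccr3 with 490 counts in WT and 94 in Rab44-KO. Ear6 reached 10 counts only in OVA-induced WT and so could be counted only as lower. Siglecf, another of the 5, is also counted among the alveolar macrophage genes. The eosinophil list summed to 21.5 CPM in WT and 22.7 in Rab44-KO mice under normal conditions, and 65.8 in WT and 18.7 in Rab44-KO mice after OVA induction. The defining gene Epx (eosinophil peroxidase) had 1 count in OVA-induced WT and 0 in the other 3 libraries. The 9 dendritic cell genes summed to 178 to 305 CPM, highest in OVA-induced WT, with 4 over 2-fold lower and 1 higher in OVA-induced Rab44-KO than WT. The 6 monocyte genes summed to 113 CPM in WT and 115 in Rab44-KO mice under normal conditions, and 225 in WT and 132 in Rab44-KO mice after OVA induction, with 2 over 2-fold lower in OVA-induced Rab44-KO than WT. The 5 T cell genes summed to 41.8, 38.5, 74.5 and 36.3 CPM in the same order, with 4 over 2-fold lower, and the 4 mast cell and basophil genes to 5.05, 2.63, 10.1 and 5.80 CPM. Neutrophil genes did not follow this order: 7 of 7 with enough counts were over 2-fold higher with OVA induction in WT and 8 of 8 in Rab44-KO. Of these, Ngp and Camp in WT, and Ly6g, Camp and Ngp in Rab44-KO, reached 10 counts only after OVA induction. They could be counted only as higher. The neutrophil list summed after OVA induction to 465 CPM in WT and 565 in Rab44-KO. The part of these cells in the levels of the 7 genes was not tested.

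Markers of heart muscle and fat also differed between the libraries. Of 5 heart muscle genes 4 were over 2-fold lower in OVA-induced than normal WT, and their sum was 665 CPM in WT and 723 in Rab44-KO mice under normal conditions, and 303 in WT and 673 in Rab44-KO mice after OVA induction. Of 4 adipocyte genes all 4 were over 2-fold lower with OVA induction in both genotypes, with sums of 40.7 CPM in WT and 64.2 in Rab44-KO mice under normal conditions, and 11.6 in WT and 16.6 in Rab44-KO mice after OVA induction. Of the 4 adipocyte genes, Lep had 36 counts in WT and 23 in Rab44-KO mice under normal conditions. After OVA induction it had 4 in WT and 7 in Rab44-KO. It had enough counts only in the normal libraries and so could be counted only as lower in both genotypes. The 7 genes of lung epithelium and endothelium had 0 over 2-fold with OVA induction in either genotype. Between the OVA-induced genotypes 1 of them was over 2-fold lower in Rab44-KO, the alveolar type 2 surfactant gene Sftpc, with 361981 counts in WT and 181126 in Rab44-KO. The part of heart, fat and alveolar type 2 cells in the results was not tested.

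**Figure D4:**
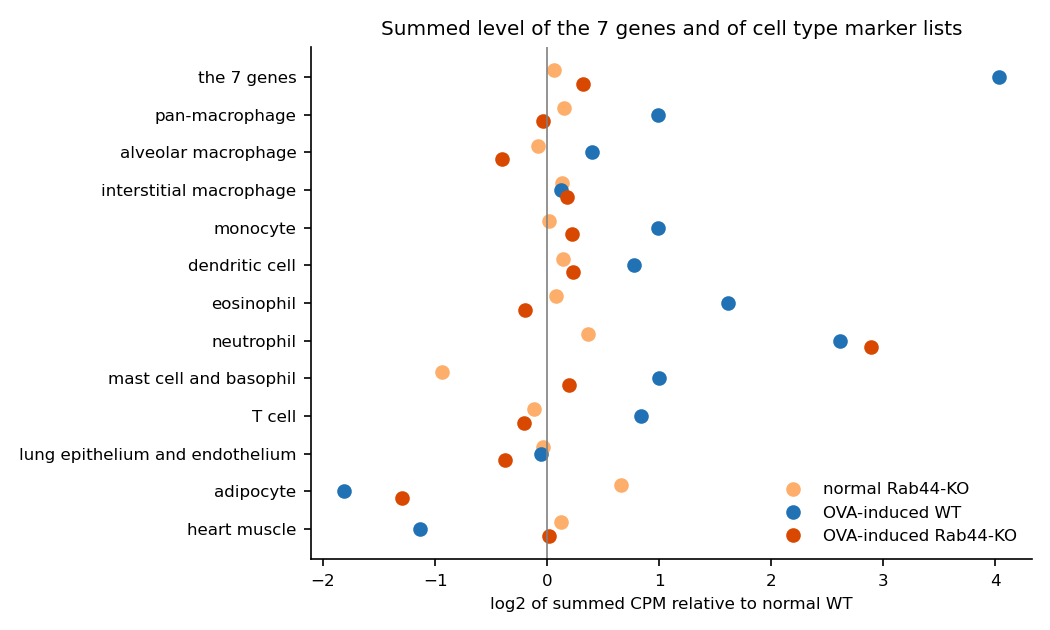
Summed CPM of the 7 genes and of each cell type marker list, as the log2 of the ratio to normal WT; each point is 1 library and the line at 0 is normal WT. The 7 genes in OVA-induced WT stand farthest to the right, which rests on Retnla: without it their sum is 2.69-fold that of normal WT, below neutrophil (6.10-fold) and eosinophil (3.07-fold) markers. Neutrophil markers are higher in both OVA-induced libraries (465 and 565 CPM) and heart muscle markers are lowest in OVA-induced WT (303 CPM).

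The cytokines that drive the program were scarce in whole lung. Il13 had 1 count in WT and 0 in Rab44-KO mice under normal conditions, and 13 in WT and 0 in Rab44-KO mice after OVA induction. With the last 0 set to 3 counts, it was 4.36-fold below OVA-induced WT, without the counting error of the 13. Il4 had 6, 7, 17 and 6 counts in the same order, 2.85-fold lower in OVA-induced Rab44-KO than WT (1.07 to 8.83). The receptor chains differed in level and in order. Il4ra, the shared chain, had 1866 counts in WT and 1974 in Rab44-KO mice under normal conditions, and 2581 in WT and 3532 in Rab44-KO mice after OVA induction, the highest of the 4. Il2rg, the common γ chain, had 1157 counts in WT and 1124 in Rab44-KO mice under normal conditions, and 2028 in WT and 1404 in Rab44-KO mice after OVA induction, so OVA-induced WT was highest. Il13ra1 had 1017 to 1308 counts. The decoy receptor Il13ra2 had 0 counts in both normal libraries, and after OVA induction 21 in WT and 3 in Rab44-KO.

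Downstream, the kinases and Stat6 itself stayed within 2-fold. Stat6 had 2552 to 3374 counts and a log2 fold change of 0.02 between the OVA-induced genotypes. Over the 18 pathway genes, 5 were lower and 0 higher by over 2-fold in OVA-induced Rab44-KO than WT, with a median log2 fold change of -0.12: Il4, Il13, Il13ra2, Irf4 and Socs1. Of these, Il4, Il13 and Il13ra2 reached 10 counts only in OVA-induced WT and so could be counted only as lower, which leaves Irf4 and Socs1. Irf4, a transcription factor needed for alternative activation, was 3.11-fold lower (2.64 to 3.68) and the feedback inhibitor Socs1 3.65-fold lower (2.52 to 5.40). Klf4, another factor of the program, had its highest count in OVA-induced Rab44-KO, at 6730 against 3541 in OVA-induced WT and 2342 to 2518 in the normal libraries.

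Of 17 other genes of alternative activation 16 were in the table, and the list went the way of the 7 genes. With OVA induction 11 of 16 were over 2-fold higher in WT (median log2 fold change 2.02) and 3 of 15 in Rab44-KO (0.29). Of these, Chil4 and Cd209e in WT, and Chil4 and Pdcd1lg2 in Rab44-KO, had enough counts only after OVA induction. They could be counted only as higher, which leaves Chil3 in Rab44-KO. In OVA-induced Rab44-KO 11 of 16 were over 2-fold lower than in WT and 1 higher, with a median of -1.53. Here Cd209e had enough counts only in OVA-induced WT and so could be counted only as lower. The chitinase-like protein Chil3 (Ym1) had the most counts of the list in both OVA-induced libraries, with 6811 in WT and 5639 in Rab44-KO mice under normal conditions, and 101647 in WT and 17869 in Rab44-KO mice after OVA induction. Unlike the 7 genes it was also over 2-fold higher with OVA induction in Rab44-KO, at 2.97-fold (2.88 to 3.06) against 14.8-fold in WT (14.4 to 15.2).

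Its relative Chil4 (Ym2) had 2 counts in WT and 1 in Rab44-KO mice under normal conditions, and 7063 in WT and 19 in Rab44-KO mice after OVA induction. The lung elastase Mmp12 had 101, 100, 2153 and 126 counts in the same order, 17.2-fold lower in OVA-induced Rab44-KO than WT (14.4 to 20.8). The eotaxin Ccl24 was 7.17-fold lower (4.23 to 13) and the lectin Cd209e 25-fold lower (10.4 to 78.2). Flt1, a VEGF receptor that endothelium makes in large amounts, was the 1 gene of the list over 2-fold higher in OVA-induced Rab44-KO, with 8854 counts against 3837. The lists were chosen with earlier results of these data known.

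**Figure D5:**
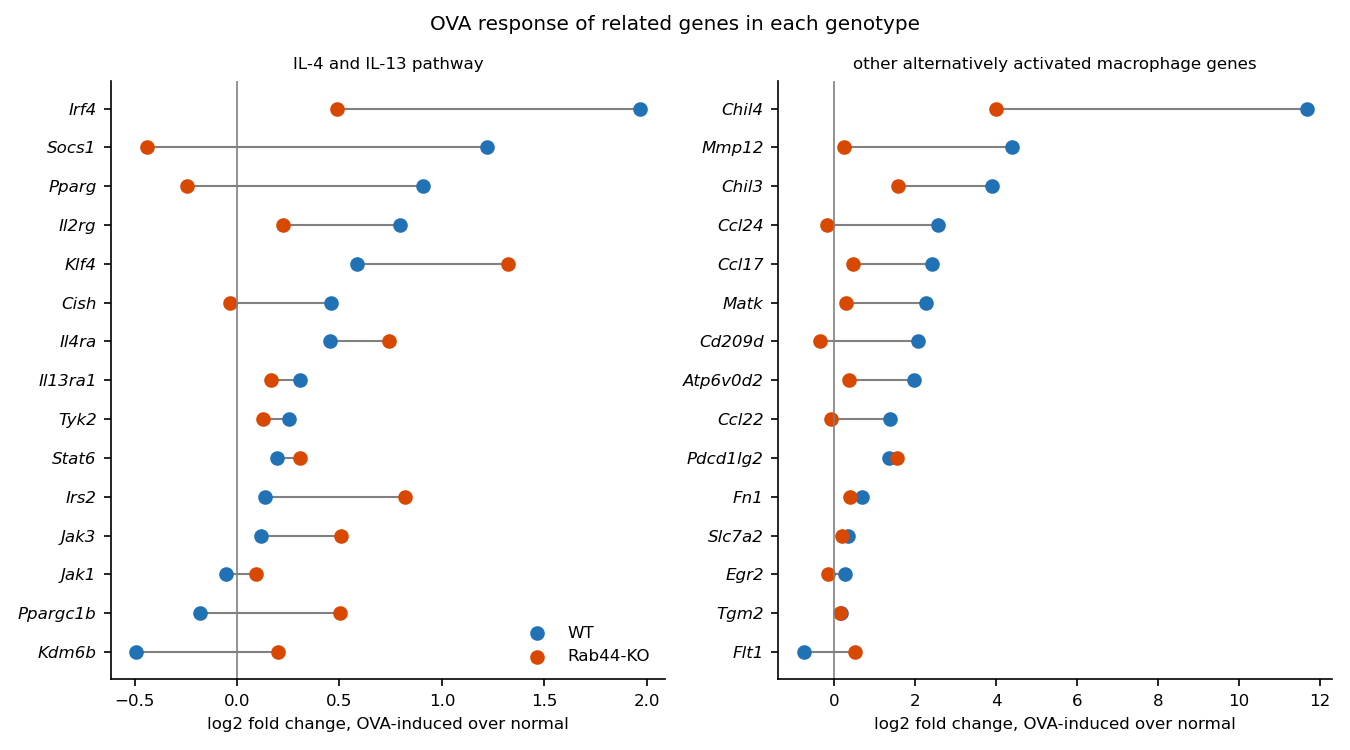
log2 fold change of OVA-induced over normal lungs in WT and in Rab44-KO, joined by a line per gene, for the genes of each list with enough counts in both comparisons and no count of 0 (15 genes on the left and 15 on the right); 1 library per group. Most genes on the right respond more in WT, up to Chil4, which had only 2 and 1 counts in the normal libraries, while the receptors Il4ra, Il13ra1 and Il2rg and the kinases on the left stay within 2-fold, up to 0.80 for Il2rg in WT.

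The relatives and partners of the members were compared within each library, which needs no scaling. The other genes of the resistin family were far less abundant in OVA-induced WT than Retnla by counts. Retnlg, made by neutrophils and 83.6% identical to Retnla over 354 aligned coding bases, had 459 counts in WT and 702 in Rab44-KO mice under normal conditions, and 2630 in WT and 2015 in Rab44-KO mice after OVA induction. Retnla counts per Retnlg count were 1.26 in WT and 1.10 in Rab44-KO mice under normal conditions, and 17 in WT and 0.468 in Rab44-KO mice after OVA induction. Retn, the resistin of fat, had 35, 30, 7 and 21 counts in the same order. Retnlb had 9 counts in OVA-induced WT and 0 in the other libraries.

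Among the lipoxygenases, Alox5, which starts leukotriene synthesis, had 396 counts in WT and 290 in Rab44-KO mice under normal conditions, and 648 in WT and 414 in Rab44-KO mice after OVA induction. Alox15 per Alox5 count was 0.331, 0.528, 1.45 and 0.459 in that order. Alox12, the platelet enzyme, had its highest count in OVA-induced Rab44-KO (331 against 183 in OVA-induced WT). Alox12e, a neighbor and relative of Alox15 with 67.4% identity over 1989 aligned coding bases, had 5, 9, 67 and 1 counts, so OVA-induced WT was again highest.

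For Trem2 the adaptor Tyrobp was higher in OVA-induced WT too, at 1947 counts against 710 in WT and 648 in Rab44-KO under normal conditions and 792 in OVA-induced Rab44-KO, but by less than Trem2. Trem2 counts per Tyrobp count were 0.0577 in WT and 0.0926 in Rab44-KO mice under normal conditions, and 0.200 in WT and 0.0859 in Rab44-KO mice after OVA induction. Of the 11 partner and lipid-associated genes, 8 were over 2-fold higher with OVA induction in WT and 2 in Rab44-KO, and 5 were lower and 1 was higher by over 2-fold in OVA-induced Rab44-KO than WT. The lysosomal glycoprotein Gpnmb was 7.90-fold lower (7.16 to 8.73) and the fatty acid binding protein Fabp5 7.18-fold lower (6.65 to 7.75). Fabp5 was also under its normal level in OVA-induced Rab44-KO, 2.04-fold lower than in normal Rab44-KO (1.86 to 2.23). Trem1, a receptor of neutrophils and monocytes with the same adaptor, was the higher one, with 252 counts in OVA-induced Rab44-KO and 115 in OVA-induced WT.

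Around Cd163 the genes of hemoglobin and iron handling were also spread. Hmox1, which degrades heme, had 460 counts in WT and 581 in Rab44-KO mice under normal conditions, and 1177 in WT and 513 in Rab44-KO mice after OVA induction. The iron exporter Slc40a1 had 258, 356, 386 and 462 counts, an order like that of Cd163. Of the 5 genes beside Cd163, 1 was lower and 0 higher by over 2-fold in OVA-induced Rab44-KO than WT. Genes of classical activation, the opposite program, went the same way. Under OVA-induced conditions 5 of 12 were lower in Rab44-KO and 0 higher by over 2-fold. The chemokines Cxcl9 (12 counts against 105 in WT) and Cxcl10 (21 against 107) led these 5. Another of them, Il6 (6 against 13), had enough counts only in OVA-induced WT and so could be counted only as lower.

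Of the 7 genes 3 lie within 221703 bases of chromosome 11 (chr11:70130329-70352031), from Mgl2 over Clec10a to Alox15. Of the 10 genes of this stretch with at least 10 counts in normal or OVA-induced WT, 4 were over 2-fold higher in OVA-induced WT: Mgl2, Clec10a, Alox12e and Alox15. Alox12e, with 5 and 67 counts, reached 10 only in OVA-induced WT and so could be counted only as higher. The other 6 genes of the stretch were not over 2-fold higher, with log2 fold changes from -0.81 to 0.35. Slc16a11, a transporter next to Clec10a, had 1354 counts in normal WT and 777 in OVA-induced WT, and Slc16a13 had 157 and 163. Within 150000 bases of Retnla, 2 of 5 genes were over 2-fold higher, Retnla and Retnlg. Around Trem2 it was 4 of 11, namely Trem1, Trem3, B430306N03Rik and Trem2, and the first 3 were over 2-fold higher with OVA induction in Rab44-KO as well.

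The genes with the most similar pattern over the 4 libraries were sought over 13899 genes that reached 100 counts in a library, by the root mean square difference of centered log2 CPM. For Alox15 the nearest was Ms4a7 (0.0558), a membrane protein of macrophages, with 47 counts in WT and 55 in Rab44-KO mice under normal conditions, and 332 in WT and 74 in Rab44-KO mice after OVA induction. Next to Alox15 came Slc6a20a (0.114) and the antibody segment Ighv1-52 (0.114). Alox15 and Ms4a7 were also among the 3 nearest to Trem2 (0.152 and 0.175), beside Ighv1-52. For Mgl2 they were B3gnt7 (0.0606), the β-glucan receptor Clec7a (0.133) and Tdo2 (0.136). Clec10a was nearest to the airway mucin Muc5b (0.0127) and to the class II antigen presentation genes Cd74 (0.0367) and H2-Eb1 (0.0372).

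The nearest to Retnla were Fer1l6 (0.234), the antibody segment Igkv17-121 (0.375) and the chemokine Ccl8 (0.411). Mrc1 was nearest to Rnf19b (0.0160), Arhgap9 (0.0191) and H2-Ob (0.0197), and Cd163 to Cc2d1a (0.00316), Iars1 (0.0152) and Sel1l (0.0167). With 4 values per gene these are descriptions, and a gene with small differences between libraries finds near neighbors more easily.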

How the data were processed

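Total lung RNA was sequenced as 4 libraries, 1 per group. The authors deposited raw counts per gene, made with featureCounts from trimmed reads that HISAT2 had aligned to GRCm38, and TPM, which are scaled per gene length and to the same total in every library. Tool versions, the annotation and the handling of strand and of multiply matching reads are not given in the sources used here. The 7 genes and all gene lists were chosen with earlier results of these data known. Counts were scaled to CPM with TMM over the 4 libraries (edgeR 4.0.16, R 4.3.3). The log2 fold change is the log2 CPM ratio with a prior count of 0.125, over genes that reached 10 counts in either library. For a fold against a count of 0, the 0 was set to 3 counts. Ratios have exact 95% Clopper-Pearson and CPM exact Poisson intervals (scipy 1.17.1). DESeq2 1.42.0, whose test needs replicates, gave size factors only.

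Named were all 7 genes, Rab44, Il4, Il13 and their receptors, the relatives and partners of the members, genes from among the 5 per list with the largest OVA-induced genotype difference and at least 100 counts, not all of which are printed, and the 3 nearest patterns. Stat6, Mertk, Epx, Trem1, Trem3, Flt1, Ccl17, Pdcd1lg2, Cidec, Ly6g, Camp, Il6, Lep and the sex-linked, antisense and neighboring genes were named after their values were seen. The deposited gene starts matched GENCODE M21 (GRCm38) for 0 of 8 genes checked, so positions are those of GENCODE M21 and no coordinates were converted. Promoters are from RefSeq (GRCm38.p6), with 5 of 7 genes matched. Results of 1 further gene of the group and of 1 macrophage marker are not reported here. Steps were tested on simulated counts. Alternatives were a prior count of 2, scaling by DESeq2 size factors or by total counts, TMM on the compared pair or without immunoglobulin genes, TPM with a pseudocount of 0.1, thinned counts, removal of a length trend, count minimums of 1 and 50 and an absolute log2 fold change above 2.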

Additional observations from a re-analysis of the deposited data

Results flagged for a closer look

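For 4 genes the genotype difference had opposite signs in the normal and the OVA-induced libraries, higher in Rab44-KO in the normal pair and lower in the OVA-induced pair. On the log2 scale these were 0.49 and -5.57 for Retnla, 0.30 and -2.32 for Alox15, 0.10 and -1.50 for Clec10a, and 0.62 and -2.53 for Trem2. The normal values of Alox15 and Clec10a have counting intervals that include 0. For 2 genes the OVA response had opposite signs in the genotypes, at 2.12 in WT and -0.20 in Rab44-KO for Mgl2 and 1.33 and -0.27 for Clec10a, and both Rab44-KO intervals include 0. With 1 library per group these differences were not tested.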

How the results depend on the processing

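Over the alternatives run, no fold change or median that was past 2-fold changed its direction. The number of genes over 2-fold higher in the OVA response of WT was 5 with total counts only and with TPM, and 4 of these genes passed an absolute log2 fold change of 2, as did 4 in the OVA-induced genotype difference. The median OVA-induced genotype difference moved from -2.32 to -1.93 with TPM and to -2.08 with the length trend removed. TPM also moved the median of all genes in that comparison to 0.29, and to -0.16 and 0.11 in the OVA responses of WT and Rab44-KO. Without Lyz2, the median change per pan-macrophage count was 0.0662 in the OVA response of Rab44-KO (0.39 with it) and -1.66 in the OVA-induced genotype difference (-1.29 with it). The OVA response of Trem2 in Rab44-KO turned to -0.02 with thinned counts, within its counting interval. Of the gene values under alternatives 258 stayed within their counting interval and 22 moved, 13 with TPM and 9 with the length trend removed. No paired analysis was possible because each group has 1 library, and no library could be left out.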
